A study of Mus musculus with 54 samples.

Results

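Aminoacyl-tRNA synthetases join each amino acid to its matching tRNA, the step that fixes the genetic code before a ribosome reads a codon. Animal cells keep, with few exceptions, separate sets of these enzymes for the cytosol and for mitochondria, and both sets are encoded in the nucleus. The 36 genes described here were taken by name from a table of 45802 mouse genes. Of these, 20 encode cytosolic enzymes or subunits and 16, whose symbols end in 2, encode mitochondrial enzymes. Each name occurred once in the table. Gars and Kars belong to the cytosolic set here, although both genes also give the mitochondrial enzyme for their amino acid, and Eprs encodes 1 protein that charges 2 amino acids, glutamate and proline.

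The cells were CD4+ CD25- T cells of C57BL/6 mice, stimulated through CD3e and CD28 and driven towards the Th17 fate for 4 days with TGF-β1, IL-6 and IL-1β while IFN-γ and IL-4 were blocked. They received DMSO vehicle, Arg C (P2A7 in the labels, 60 mM by the label, a unit that no other source used here checks) or linezolid (100 µM), an antibiotic known to block mitochondrial as well as bacterial ribosomes, for 96 h. Live CD4+ cells were sorted by dilution of CellTrace Violet, a dye that loses brightness at each division, into cycle 2 (1 division), cycle 3 (2 divisions) and cycle 4 (3 or more divisions). The study's 2 experiments, 3 drugs and 3 cycles gave 18 samples, each sequenced as 3 technical libraries that were averaged, so that each drug at each cycle had n = 2 experiments and each drug 6 samples. The labels do not say whether each experiment used 1 mouse or pooled mice, and the 3 cycles of a drug in 1 experiment came from 1 culture condition, so the 6 samples of a drug are not 6 independent cultures.

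Each sample held between 24.3 and 36.9 M (mega) reads. Of 4 markers of the labelled cell type, Cd4 lay between 209 and 294 RPKM (reads scaled to the length of the gene model in kilobases and to M reads sequenced) over the 18 samples, Cd3e had medians of 149 in DMSO, 107 in Arg C and 138 in linezolid, Cd3d had medians of 252, 221 and 248, and Trac was listed at 0 in every sample. Levels of the Th17 cytokine genes moved with the drugs: Il17a ranged from 14.9 to 64.5 RPKM in DMSO, from 1.72 to 5.45 in Arg C and from 1.91 to 7.28 in linezolid, and Il17f from 85.3 to 303.5, from 6.74 to 33.1 and from 8.73 to 33.5. The Th17 receptor genes Il23r and Ccr6 were at 0.604 to 1.11 and 1.03 to 2.97 RPKM in DMSO and at or under 0.121 with either drug. H2-Ab1, an MHC class II gene, was at 66.5 to 97.1 RPKM in DMSO, 8.31 to 11.3 in Arg C and 10.7 to 13.8 in linezolid, while the dendritic cell markers Itgax, Flt3 and Xcr1 stayed at or under 0.0966 RPKM and the macrophage marker Lyz2 at or under 0.0593. The summed level of 4 B cell markers was 0.658 to 3.43 RPKM in DMSO, 0.209 to 0.652 in Arg C and 0.310 to 2.02 in linezolid. The part of these markers in the results below was not tested, and in bulk RNA fewer cells of a kind and less RNA per cell cannot be told apart.

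Cells sense uncharged tRNA through the kinase GCN2, encoded by Eif2ak4, which raises translation of the transcription factor ATF4. ATF4 is known to bind composite C/EBP-ATF response elements near amino acid genes, several cytosolic synthetase genes among them, whereas the mitochondrial enzymes are not classical members of that response. The core letters of this element, TTNCATCA on either strand, were looked for in RefSeq windows of 300 bases (250 before and 50 after the start site, build GRCm38.p6). A window was at hand for 27 of the 36 genes, 13 cytosolic and 14 mitochondrial. The core was found in 5 of the 13 cytosolic genes (Aars, Gars, Iars, Tars and Yars), in 0 of the 14 mitochondrial genes and in 3.97% of all 32851 windows. These sites are shown because the 5 genes differ widely in how they moved. Capitals mark the core, 1 site is given per gene, and each line is 30 bases read 5′ to 3′ along the gene:
Aars, chr8:111033840-111033869, plus strand, 9 bases after the start: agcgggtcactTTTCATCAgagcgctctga
Gars, chr6:55037960-55037989, plus strand, 30 bases before the start: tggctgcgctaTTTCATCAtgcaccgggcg
Iars, chr13:49682126-49682155, plus strand, 7 bases after the start: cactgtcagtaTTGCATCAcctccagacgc
Tars, chr15:11399655-11399684, minus strand, 15 bases before the start: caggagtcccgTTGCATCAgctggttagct
Yars, chr4:129189895-129189924, plus strand, 3 bases after the start, core on the opposite strand: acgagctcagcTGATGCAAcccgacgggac
The other cytosolic genes with a window hold no copy of the core. Among them Sars, Qars and Kars rose with both drugs, and Dars and Farsa fell. The 250 bases before the start of Dars, the aspartate gene with the largest fall in log2(RPKM + 1) among the cytosolic set, are given as 1 example:
Dars, chr1:128417417-128417666, minus strand: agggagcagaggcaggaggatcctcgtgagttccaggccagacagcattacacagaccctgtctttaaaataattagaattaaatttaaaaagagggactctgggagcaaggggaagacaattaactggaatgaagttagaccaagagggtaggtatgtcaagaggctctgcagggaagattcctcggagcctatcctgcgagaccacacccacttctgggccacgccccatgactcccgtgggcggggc
A match describes letters in a window and does not show that a factor binds there. Whether the core goes with the direction of change was not tested.

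The levels set the frame for the comparisons. RPKM values allow for length, so they can be compared between genes. Over the 6 DMSO samples the cytosolic genes summed to 670 ± 63.3 RPKM (SD, n = 6) and the mitochondrial genes without Lars2 to 64.6 ± 4.00 (SD, n = 6). Lars2, which charges leucine in mitochondria, was kept apart from sums because its level varied widely between samples, from 5.28 to 79.7 RPKM, as described below. The most abundant genes by median in DMSO were Qars at 86.9, Sars at 82.9, Gars at 74.2 and Kars at 66.5 RPKM, which charge glutamine, serine, glycine and lysine. The lowest were the mitochondrial Wars2 at 0.867 and Ears2 at 0.325. For 15 amino acid pairings of a cytosolic with a mitochondrial gene, the cytosolic gene stood higher in DMSO in 14, by up to 21.4 times. The exception was leucine, where Lars reached 0.646 times the mean level of Lars2.

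Ears2, which charges glutamate in mitochondria, did not reach the level set for testing (0.5 RPKM in at least 2 of 18 samples). Its DMSO samples lay between 0.275 and 0.410 RPKM (median 0.325), its Arg C samples between 0.0487 and 0.107 (median 0.0728) and its linezolid samples between 0.0482 and 0.132 (median 0.113). Both drug groups lay below all DMSO samples, on 9 to 29 reads a sample against 58 to 85. When no filter was applied, Ears2 fell by 0.31 in Arg C and by 0.28 in linezolid on the log2(RPKM + 1) scale (adjusted p = 5.84e-07 and 2.82e-06).

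Differences between drugs are given on the log2(RPKM + 1) scale, which understates the change of genes near or under 1 RPKM, and p-values come from limma, Benjamini-Hochberg adjusted over all 11004 genes tested. A gene passed at an adjusted p under 0.05. On this scale the median of all genes was -0.47 in Arg C, -0.21 in linezolid and -0.23 for Arg C against linezolid. When samples were instead scaled by the median ratio over genes, those medians were -0.00, 0.00 and 0.01. Some directions therefore depend on the reference, and counts of genes by group are given on both scales where all cycles are compared. With n = 2 experiments, p-values measure the spread between these samples. The fit treated the cycles of a drug within an experiment as independent samples, although they came from the same culture condition. The standard errors and p-values rest on that assumption and do not measure the spread between independent cultures.

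Arg C was compared with DMSO over the 3 cycles. Among the 20 cytosolic genes 6 rose, 8 fell and 6 did not pass. Among the 15 tested mitochondrial genes 12 fell, 2 did not pass and 1, Lars2, rose, so that without Lars2 none of 14 rose. Of all genes tested 16.5% rose and 70% fell (86.5% in either direction), so the mitochondrial share that fell was close to the background and the cytosolic share that fell was below it. The median difference was -0.08 for the cytosolic genes and -0.75 for the mitochondrial genes, beside -0.47 for all genes. Under median-ratio scaling the cytosolic counts were 13 higher and 7 lower (median 0.55), and 4 mitochondrial genes were higher and 9 lower (median -0.28), where 41.4% of all genes were higher and 41.9% lower. The cytosolic median thus changed sign with the scaling, while it stood above that of all genes on both. Over the mitochondrial genes whose mean reached 5 RPKM the median was -0.39, beside -0.47 for all genes, which were not held to that level. Those mitochondrial genes were Fars2, Iars2, Tars2 and Lars2, with differences of -0.02, -0.75, -0.84 and 1.44. Without Lars2 the median was -0.75, that of Iars2. Exons of Iars2 share 2034 bases with Rab3gap2 on the opposite strand, so its reads may not be fully apart. Rab3gap2 had medians of 12.1 RPKM in DMSO, 10.6 in Arg C and 11.6 in linezolid.

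Linezolid gave 11 rises and 6 falls among the 20 cytosolic genes, and 1 rise (Lars2) and 10 falls among the 15 mitochondrial genes. Of all genes tested 21% rose and 54.5% fell, 75.5% together. The medians were 0.22 for the cytosolic genes and -0.37 for the mitochondrial genes, beside -0.21 for all genes. Over the mitochondrial genes with a mean of 5 RPKM or more (Fars2, Iars2, Tars2 and Lars2) the median was -0.18. Without Lars2 it was -0.37, the value of Iars2. Under median-ratio scaling the cytosolic counts were 14 higher and 5 lower and the mitochondrial counts 4 and 7, with 36.9% of all genes higher and 37.1% lower. The comparisons with DMSO share their DMSO samples, so the 2 drugs' values are set side by side and not treated as separate evidence.

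**Figure D1:**
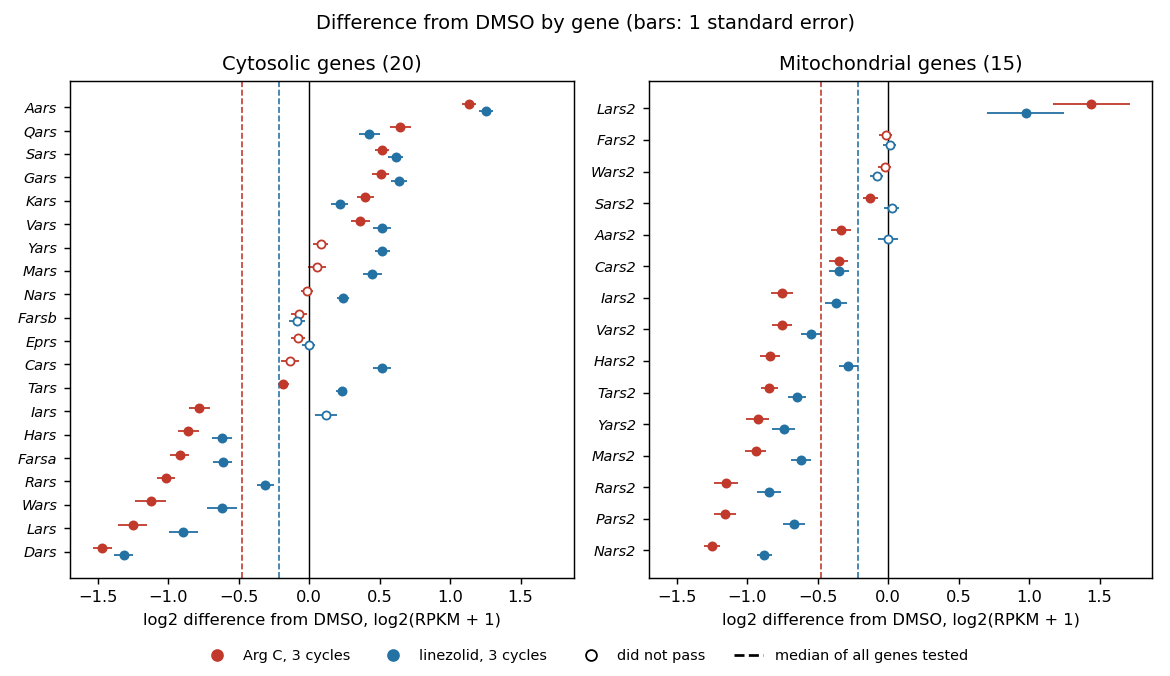
Difference from DMSO for each of the 20 cytosolic and 15 mitochondrial genes tested, on the log2(RPKM + 1) scale (horizontal axis), with bars of 1 standard error. Red points are Arg C, blue points linezolid, open points did not pass at an adjusted p of 0.05, and dashed lines mark the median of all genes in the matching color (-0.47 and -0.21). The mitochondrial genes apart from Lars2 sit at or left of 0 for Arg C, whereas the cytosolic genes spread from -1.47 to 1.13.

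Aars, which charges alanine, rose the most among the cytosolic genes. It lay between 16.3 and 20.4 RPKM in DMSO (median 18.7), between 37.5 and 47.4 in Arg C (median 40.5) and between 36.04 and 51.4 in linezolid (median 47.3). Both drug groups stood clear of DMSO at every cycle and overlapped each other. The log2 difference was 1.13 ± 0.05 (SE, adjusted p = 5.30e-10) for Arg C and 1.25 ± 0.05 (adjusted p = 4.26e-10) for linezolid. An Aars exon shares 1326 bases with Exosc6 on the same strand, and how reads there were assigned is not given in the sources used here. Exosc6 itself fell, from a median of 5.25 RPKM in DMSO to 2.39 in Arg C and 4.03 in linezolid.

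Sars, the serine enzyme, lay between 79.0 and 91.9 RPKM in DMSO (median 82.9), 106 and 132 in Arg C (median 122) and 102 and 147 in linezolid (median 133). Neither drug group overlapped DMSO. It rose by 0.51 ± 0.05 (SE) in Arg C and 0.61 ± 0.05 in linezolid on the log2 scale (adjusted p = 6.00e-07 and 2.71e-07). Qars, the glutamine enzyme and a member of the multi-synthetase complex, lay between 75.2 and 102 RPKM in DMSO (median 86.9), 111 and 161 in Arg C (median 141) and 96.1 and 139 in linezolid (median 115). Its Arg C samples were all above DMSO, and its linezolid samples overlapped DMSO. The differences were 0.65 ± 0.07 (SE, adjusted p = 2.74e-06) and 0.43 ± 0.07 (adjusted p = 1.82e-04).

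Gars and Kars serve both compartments. Gars lay between 62.3 and 88.3 RPKM in DMSO (median 74.2), 72.5 and 128 in Arg C (median 117) and 74.6 and 155 in linezolid (median 126). The overlap with DMSO came from cycle 2, where the drug samples were lowest. Within each experiment and cycle the drug sample was above its DMSO sample in 6 of 6 pairs for both drugs. Gars rose by 0.51 ± 0.06 (SE, adjusted p = 3.06e-06) in Arg C and by 0.64 ± 0.06 (adjusted p = 7.58e-07) in linezolid. Kars ranged from 59.1 to 83.1 RPKM in DMSO (median 66.5), 68.7 to 111 in Arg C (median 95.2) and 59.2 to 105 in linezolid (median 83.6), with overlapping ranges. It rose by 0.40 ± 0.06 (SE) in Arg C and 0.22 ± 0.06 in linezolid (adjusted p = 3.76e-05 and 0.00549). From experiment 2 alone the linezolid difference of Kars was 0.06 (adjusted p = 0.44). Eprs, the other gene with a joint role, covered 21.3 to 31.2 RPKM in DMSO (median 27.3), 16.1 to 33.5 in Arg C (median 28.3) and 17.3 to 36.4 in linezolid (median 28.4). Its difference over the 3 cycles was -0.08 ± 0.05 (SE, adjusted p = 0.133) in Arg C and -0.00 ± 0.05 (adjusted p = 0.945) in linezolid, but 0.55 and 0.27 with median-ratio scaling (adjusted p = 7.81e-07 and 7.52e-04).

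**Figure D2:**
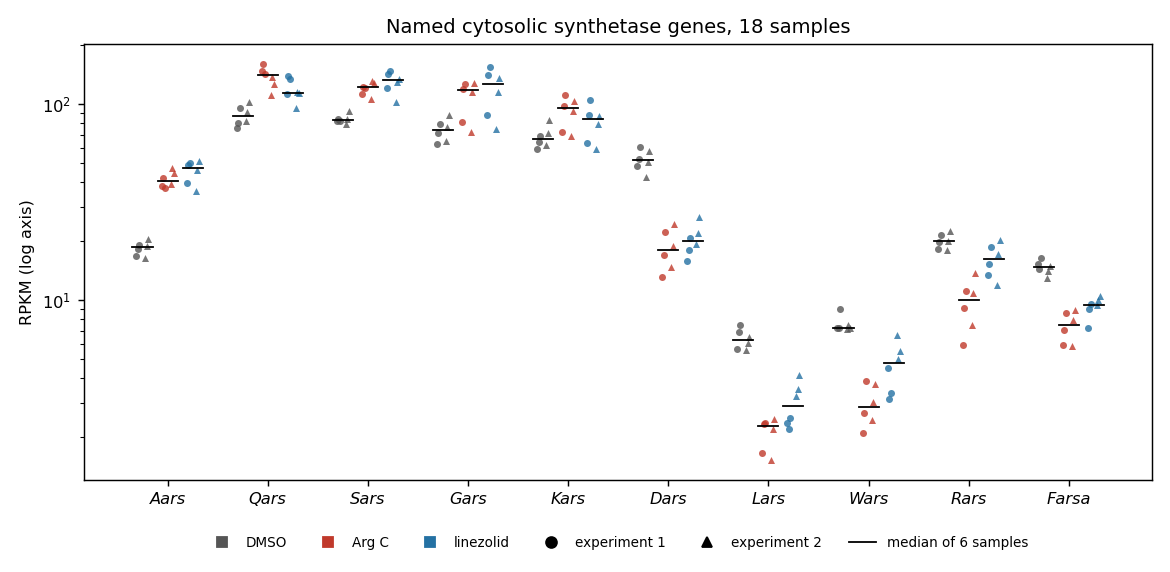
RPKM on a log axis for the 5 cytosolic genes with the largest and the 5 with the smallest Arg C difference, with 1 point per sample (circles experiment 1, triangles experiment 2) and a bar at the median of 6 samples. The highest DMSO sample of Aars is at 20.4 RPKM and its lowest drug sample at 36.04, and the lowest DMSO sample of Dars is at 42.3 RPKM and its highest drug sample at 26.5.

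Dars, the aspartate enzyme and also part of the multi-synthetase complex, fell the most on the log2(RPKM + 1) scale. Its samples lay between 42.3 and 60.5 RPKM in DMSO (median 51.7), 13.2 and 24.4 in Arg C (median 17.9) and 15.8 and 26.5 in linezolid (median 20.0). The drug samples did not reach the lowest DMSO sample. The log2 difference was -1.47 ± 0.07 (SE, adjusted p = 7.89e-10) in Arg C and -1.31 ± 0.07 (adjusted p = 4.26e-09) in linezolid. Lars, which charges leucine in the cytosol, lay between 5.56 and 7.49 RPKM in DMSO (median 6.26), 1.53 and 2.47 in Arg C (median 2.27) and 2.21 and 4.14 in linezolid (median 2.87), again with no overlap with DMSO. It fell by 1.25 in Arg C and by 0.89 in linezolid on the log2 scale (SE 0.10, adjusted p = 1.20e-07 and 5.66e-06).

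Wars, the tryptophan enzyme, which is also known as an interferon-responsive gene, lay between 7.16 and 9.06 RPKM in DMSO (median 7.24), 2.10 and 3.85 in Arg C (median 2.84) and 3.11 and 6.68 in linezolid (median 4.77). Its linezolid samples came closest to DMSO, without overlap. It fell by 1.12 and by 0.62 on the log2 scale (SE 0.11, adjusted p = 4.87e-07 and 1.94e-04), and from experiment 2 alone the linezolid difference was -0.31 (adjusted p = 0.058). Farsa, the catalytic subunit of the phenylalanine enzyme, lay between 13.0 and 16.4 RPKM in DMSO (median 14.7), 5.85 and 8.94 in Arg C (median 7.48) and 7.21 and 10.5 in linezolid (median 9.50). It fell by 0.92 and by 0.61 (SE 0.07, adjusted p = 3.63e-08 and 3.24e-06). Farsb, the partner subunit of the same enzyme, covered 16.3 to 21.5 RPKM in DMSO, 11.8 to 24.5 in Arg C and 12.6 to 21.3 in linezolid, so its groups overlapped. Its difference was -0.07 ± 0.06 (SE, adjusted p = 0.239) in Arg C and -0.09 ± 0.06 (adjusted p = 0.178) in linezolid, but 0.55 and 0.18 with median-ratio scaling, where both passed (adjusted p = 1.03e-05 and 0.0384). The difference between the 2 subunits in their response was not tested.

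In Arg C, Vars (valine) rose by 0.36 and Tars (threonine), Iars (isoleucine), Hars (histidine) and Rars (arginine) fell by 0.18, 0.78, 0.86 and 1.01. Cars, Mars, Nars and Yars had differences of -0.14, 0.06, -0.01 and 0.08 that did not pass (adjusted p between 0.0650 and 0.751). With median-ratio scaling these 4 were higher in Arg C, by 0.47, 0.67, 0.62 and 0.70 (adjusted p = 8.89e-07, 2.51e-07, 3.06e-08 and 2.16e-07). In linezolid Cars, Mars, Nars, Tars, Vars and Yars rose by between 0.23 and 0.52, whereas Hars and Rars fell by 0.62 and 0.31 and Iars had a difference of 0.12 (adjusted p = 0.182). Under median-ratio scaling Tars was higher in Arg C as well, by 0.44 (adjusted p = 5.04e-06), and with either experiment left out its Arg C and linezolid calls were lost (adjusted p between 0.080 and 0.15). Rars had a linezolid difference of -0.04 under that scaling (adjusted p = 0.51).

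The cytosolic genes were also split by membership of a list of 13 ATF4-responsive synthetase genes, drawn up with earlier results of these data known. In Arg C 4 of the 13 rose and 4 fell, and in linezolid 9 rose and 2 fell. Of the other 7 cytosolic genes 2 rose and 4 fell with each drug. Over all genes 16.5% rose and 70% fell in Arg C, and 21% and 54.5% in linezolid. The medians were -0.01 and 0.45 for the 13, and -0.86 and -0.31 for the 7, beside -0.47 and -0.21 for all genes. Under median-ratio scaling 10 of the 13 stood higher and 3 lower in Arg C, and 11 and 2 in linezolid, and of the 7 there were 3 higher and 4 lower, then 3 and 3 (all genes 41.4% and 41.9% in Arg C, 36.9% and 37.1% in linezolid). The 2 that fell with linezolid were Lars and Wars. The 5 genes with the element core, Aars, Gars, Iars, Tars and Yars, had Arg C differences of 1.13, 0.51, -0.78, -0.18 and 0.08 and linezolid differences of 1.25, 0.64, 0.12, 0.23 and 0.52. So Aars and Gars rose with both drugs, Tars and Yars rose with linezolid, and Iars and Tars fell with Arg C. Of the 8 members of the multi-synthetase complex, a cytosolic particle that holds several of these enzymes together, 2 rose (Qars and Kars) and 4 fell (Dars, Iars, Lars and Rars) in Arg C, and 3 rose and 3 fell in linezolid. With median-ratio scaling 4 stood higher and 4 lower in Arg C, and 5 and 2 in linezolid.

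In absolute RPKM the mitochondrial enzymes covered a lower and narrower range. Nars2, for asparagine, lay between 1.86 and 2.34 RPKM in DMSO (median 2.06), 0.174 and 0.442 in Arg C (median 0.292) and 0.520 and 0.933 in linezolid (median 0.626). The 3 groups did not overlap, with linezolid between the others. Nars2 fell by 1.25 in Arg C and by 0.88 in linezolid on the log2 scale (SE 0.06, adjusted p = 5.77e-10 and 2.76e-08), and its mean in Arg C was 0.141 times that in DMSO. Pars2, for proline, lay between 1.28 and 1.82 RPKM in DMSO (median 1.39), 0.0104 and 0.195 in Arg C (median 0.103) and 0.224 and 0.994 in linezolid (median 0.605). These groups, too, were apart from each other. Its Arg C mean was 0.0685 times the DMSO mean, on 1 to 15 reads a sample against 124 to 190, and the log2 difference was -1.16 ± 0.08 (SE, adjusted p = 1.93e-08), beside -0.66 ± 0.08 (adjusted p = 6.55e-06) in linezolid.

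Rars2, for arginine, lay between 2.30 and 4.02 RPKM in DMSO (median 3.06), 0.638 and 1.01 in Arg C (median 0.899) and 1.05 and 1.77 in linezolid (median 1.23). Here, as well, the linezolid samples lay between the other groups. It fell by 1.15 and by 0.84 (SE 0.09, adjusted p = 4.34e-08 and 1.67e-06). Mars2, for methionine, lay between 1.33 and 1.86 RPKM in DMSO (median 1.59), 0.248 and 0.457 in Arg C (median 0.308) and 0.319 and 0.969 in linezolid (median 0.792). Its 2 drug groups overlapped each other and not DMSO. It fell by 0.94 and by 0.62 (SE 0.07, adjusted p = 6.50e-08 and 6.47e-06).

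At the other end, Fars2, Wars2 and Sars2 (phenylalanine, tryptophan and serine) moved little on the RPKM scale. Fars2 lay between 10.6 and 12.1 RPKM in DMSO (median 11.8), 9.78 and 12.7 in Arg C (median 11.7) and 10.5 and 13.0 in linezolid (median 11.5), so the 3 groups overlapped. The log2 difference was -0.02 ± 0.05 (SE, adjusted p = 0.741) in Arg C and 0.01 ± 0.05 (adjusted p = 0.844) in linezolid. Wars2 had -0.02 ± 0.05 (adjusted p = 0.617) and -0.08 ± 0.05 (adjusted p = 0.129). Sars2 fell by 0.13 in Arg C (adjusted p = 0.0448) and had a difference of 0.03 in linezolid (adjusted p = 0.685). The Arg C call of Sars2 was lost in 17 of 23 fits that left out a library set, among them those without experiment 1 or without experiment 2 (adjusted p = 0.15 and 0.46). Under median-ratio scaling all 3 were higher in Arg C, by 0.58, 0.28 and 0.39 (adjusted p = 2.94e-06, 9.68e-05 and 5.67e-05). Exons of Fars2 share 501 bases with Nrn1 and 115 with Lyrm4 on the opposite strand, and whether counting used the strand is not given in the sources used here. Nrn1 fell from a median of 28.9 RPKM in DMSO to 1.34 in Arg C. The remaining 7 tested mitochondrial genes (Aars2, Cars2, Hars2, Iars2, Tars2, Vars2 and Yars2) fell in Arg C by between 0.33 and 0.92, and 6 of them fell in linezolid by between 0.28 and 0.74. Aars2 was the one that did not pass with linezolid, with a difference of -0.00 (adjusted p = 0.987).

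**Figure D3:**
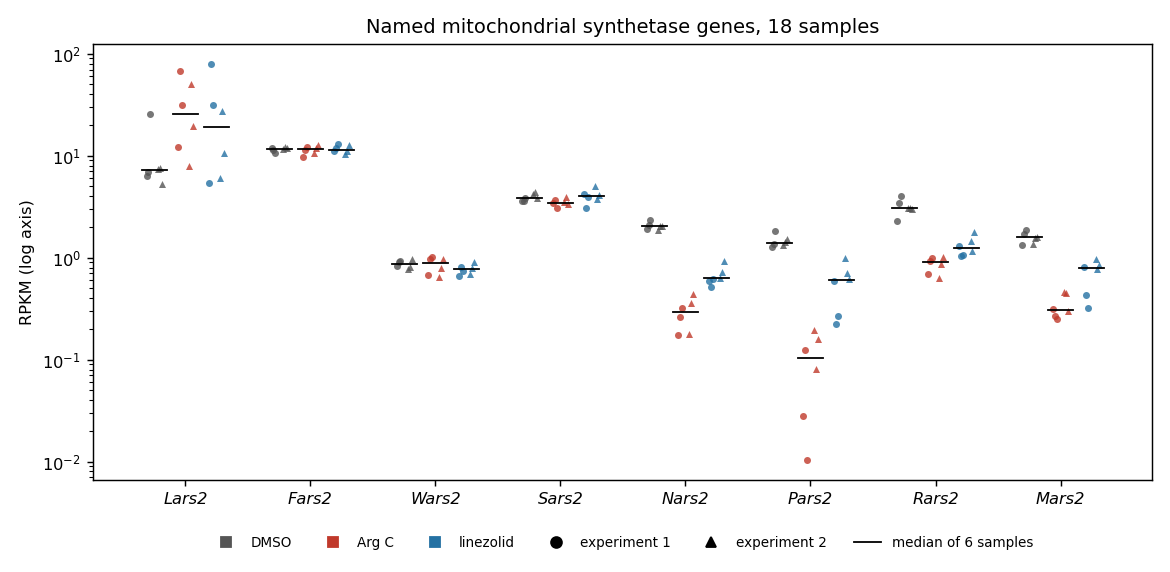
RPKM on a log axis for the 4 mitochondrial genes with the largest and the 4 with the smallest Arg C difference, with 1 point per sample (circles experiment 1, triangles experiment 2) and a bar at the median of 6 samples. Nars2, Pars2 and Rars2 show 3 separate groups in the order DMSO, linezolid, Arg C, and Lars2 spreads from 5.28 to 79.7 RPKM.

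Lars2 was irregular between samples. In DMSO it was 6.31, 6.93 and 25.4 RPKM at cycles 2, 3 and 4 of experiment 1 and 7.45, 7.51 and 5.28 in experiment 2. In Arg C it was 12.3, 67.2 and 31.5 in experiment 1 and 7.84, 50.4 and 19.6 in experiment 2, and in linezolid 5.43, 79.7 and 31.8, then 6.04, 27.6 and 10.7. Cycle 3 was highest in both experiments with both drugs and in experiment 2 of DMSO, and the groups overlapped. Lars2 rose by 1.44 ± 0.27 (SE, adjusted p = 2.55e-04) in Arg C and by 0.98 ± 0.27 (adjusted p = 0.00568) in linezolid. The standard error was the largest among the members. From experiment 2 alone the values were 1.46 and 0.79 (adjusted p = 0.00596 and 0.0951), and from experiment 1 alone 1.42 and 1.16 (adjusted p = 0.0556 and 0.116), so the linezolid call was lost in either experiment and the Arg C call in experiment 1.

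Among the 11003 other genes tested, the ones most like Lars2 over the 18 samples were Gm15564 (Pearson's r = 0.993), LOC108167755 (0.982) and, at a distance, Arfrp1 (0.860). These r values describe samples that share drugs and cycles. In DMSO at cycle 4 of experiment 1, the sample with the high Lars2 value, Gm15564 was at 6.18 RPKM against 0.755 to 1.39 in the other 5 DMSO samples. In linezolid at cycle 3 of experiment 1 it reached 21.7 RPKM and LOC108167755 reached 34.5. These genes were chosen after their values were seen, and their part in the Lars2 result was not tested.

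**Figure D4:**
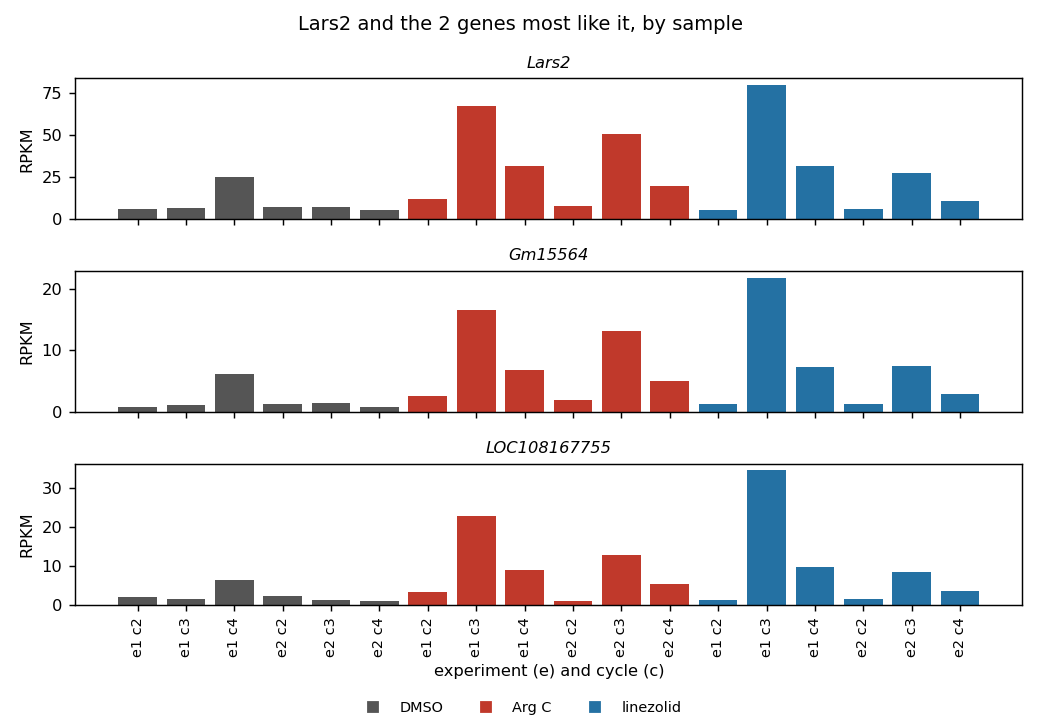
RPKM of Lars2 and of the 2 genes most like it in each of the 18 samples, with bars ordered by drug (grey DMSO, red Arg C, blue linezolid), experiment (e) and cycle (c). All 3 genes are highest in linezolid at cycle 3 of experiment 1, where Lars2 is at 79.7 RPKM, and all are higher in DMSO at cycle 4 of experiment 1 than in the other 5 DMSO samples.

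Set side by side, the cytosolic genes summed to 670 ± 63.3 RPKM (SD, n = 6) in DMSO, 772 ± 105 in Arg C and 834 ± 128 in linezolid. Those ranges overlapped. The mitochondrial genes without Lars2 summed to 64.6 ± 4.00 RPKM in DMSO (lowest 58.8), 38.8 ± 3.61 in Arg C (highest 42.9) and 47.4 ± 4.51 in linezolid (highest 54.5), so both drug groups lay below DMSO. The ratio of the 2 sums, which the scaling of samples cannot alter, was 10.4 ± 0.622 in DMSO, with a highest value of 11.5. It was 19.8 ± 1.39 in Arg C, with a lowest value of 17.3, and 17.7 ± 3.28 in linezolid, with a lowest value of 12.9. With Lars2 included the mitochondrial sums were 74.4 ± 10.7, 70.3 ± 24.9 and 74.3 ± 25.3 RPKM, with overlapping ranges. Leaving out the 1 gene Lars2 thus decided whether the mitochondrial sum stood apart.

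By amino acid, with leucine left out, the cytosolic gene's difference lay above that of its mitochondrial partner in 9 of 14 pairings in Arg C and in 10 of 14 in linezolid. The 2 phenylalanine pairings share Fars2, and a pair's difference was not tested. On the log2(RPKM + 1) scale the widest gap was for alanine in Arg C, where Aars and Aars2 differed by 1.47 (1.13 against -0.33). Asparagine followed with 1.23 for Nars against Nars2, and valine with 1.12 for Vars against Vars2. That order depends on the scale, which understates genes near or under 1 RPKM. As a ratio of mean RPKM, Aars to Aars2 went from 7.25 in DMSO to 22.9 in Arg C. Nars to Nars2 went further, from 18.1 to 129, and Mars to Mars2 from 9.60 to 46.6. The gap ran the other way for tryptophan, by -1.10 (Wars -1.12, Wars2 -0.02), and for Farsa against Fars2, by -0.90. For histidine it was -0.02 (Hars -0.86, Hars2 -0.84), but Hars and Hars2 are neighbours whose exons share 195 bases on opposite strands, so their reads may not be fully apart.

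Arg C was then compared with linezolid directly. Among the cytosolic genes 2 were higher with Arg C (Kars and Qars) and 11 lower, and among the mitochondrial genes 0 were higher and 10 lower, where 7.64% of all genes tested were higher and 59.8% lower (67.4% together). The medians of -0.25 and -0.21 lay near the -0.23 of all genes. With median-ratio scaling the cytosolic counts were 9 higher and 4 lower and the mitochondrial counts 4 and 4 (all genes 32.6% and 29.2%), so the excess of lower genes was not kept. From experiment 1 alone 11 members in all were called, against 23 from both, with 3 mitochondrial genes lower and 0 cytosolic genes higher. Of the 13 ATF4-responsive cytosolic genes 0 were higher and 8 lower on the RPKM scale, and 5 and 3 with median-ratio scaling.

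Iars showed the largest difference between the drugs on the log2(RPKM + 1) scale without rescaling. As a ratio of RPKM the low gene Pars2 differed more. At cycle 2 its means were 0.112 in Arg C and 0.792 in linezolid, beside 8.39 and 16.3 for Iars. Iars lay between 16.5 and 23.1 RPKM in DMSO (median 20.4), 7.25 and 15.7 in Arg C (median 11.3) and 15.3 and 32.0 in linezolid (median 21.2). The Arg C sample was below its linezolid sample in 6 of 6 pairs, though the 2 ranges met at their ends. The log2 difference was -0.90 ± 0.08 (SE, adjusted p = 3.22e-06), and -0.55 with median-ratio scaling (adjusted p = 9.96e-06). Under that scaling Lars2 (0.81) and Qars (0.59) had larger differences in size. Rars lay between 17.9 and 22.5 RPKM in DMSO (median 20.0), 5.88 and 13.7 in Arg C (median 10.0) and 12.0 and 20.3 in linezolid (median 16.2). It was lower with Arg C by -0.70 ± 0.06 (SE, adjusted p = 3.29e-06). Cars, for cysteine, lay between 11.8 and 13.9 RPKM in DMSO (median 13.8), 9.97 and 13.8 in Arg C (median 11.9) and 16.8 and 23.8 in linezolid (median 18.1). Its linezolid samples were above all others, and the Arg C against linezolid difference was -0.65 ± 0.06 (SE, adjusted p = 6.25e-06). Both Rars and Cars were still lower with Arg C under median-ratio scaling, by -0.37 and -0.31.

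For some genes no difference between the drugs was shown: Aars had -0.12 ± 0.05 (SE, adjusted p = 0.0508), Gars -0.13 ± 0.06 (adjusted p = 0.0685), Sars -0.10 ± 0.05 (adjusted p = 0.10) and Dars -0.15 ± 0.07 (adjusted p = 0.0626). The 4 values turned to 0.24, 0.24, 0.27 and 0.20 with median-ratio scaling, where all passed (adjusted p between 0.00259 and 0.0412). Lars2 had 0.46 ± 0.27 (adjusted p = 0.148), but passed with median-ratio scaling (0.81, adjusted p = 0.0208), with upper-quartile scaling (0.76, adjusted p = 0.0309) and with the 3 cycles averaged (0.46, adjusted p = 0.0223).

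Of the 35 tested genes, 3 had all 6 Arg C samples above all DMSO samples (Aars, Qars and Sars) and 17 had them all below, where 7.65% and 55.1% of all genes did so (62.8% together). For linezolid 5 lay above (Aars, Cars, Sars, Vars and Yars) and 13 below, where 9.19% and 32.8% of all genes did so (42% together). Between Arg C and linezolid 0 lay above and 5 below (Cars, Hars2, Nars2, Pars2 and Rars2), with 0.645% and 17.3% over all genes (18% together). By share, the 17 of 35 in Arg C and the 5 of 35 in the direct comparison were near the background. The 17 were made up of 7 of 20 cytosolic and 10 of 15 mitochondrial genes, beside 55.1% of all genes.

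Each cycle was also compared on its own. At cycles 2, 3 and 4, Arg C gave 5, 6 and 5 rises and 11, 7 and 7 falls among the 20 cytosolic genes, with 12.9%, 14.1% and 11.7% of all genes higher and 62.7%, 63% and 63.5% lower (together 75.6%, 77.2% and 75.2%). Among the 15 mitochondrial genes it gave 0, 1 and 0 rises and 10, 10 and 11 falls. For linezolid the cytosolic counts were 7, 11 and 11 rises and 6, 6 and 5 falls (all genes 15.7%, 15.4% and 14% higher, 37.1%, 46% and 44.3% lower, together 52.8%, 61.4% and 58.3%), and the mitochondrial counts 0, 1 and 0 rises and 6, 10 and 8 falls. The cytosolic median moved from -0.33 at cycle 2 to 0.04 and 0.07 in Arg C, and from -0.06 to 0.32 and 0.32 in linezolid, whereas the mitochondrial median was -0.76, -0.77 and -0.68 in Arg C. Arg C against linezolid gave 0 higher and 12, 7 and 8 lower cytosolic genes at the 3 cycles, and 0 higher and 10, 3 and 4 lower mitochondrial genes, with 3.82%, 3.13% and 2.02% of all genes higher and 48.2%, 33.2% and 34.6% lower (together 52%, 36.3% and 36.6%). Leaving out a single sample took the members called at these cycles from 22, 10 and 12 down to 11, 4 and 5 (without the experiment 2 linezolid sample at cycle 2, and without the experiment 1 Arg C sample at cycles 3 and 4).

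Cells that had divided more were compared with those that had divided once. From cycle 2 to cycle 4, 4 of 20 cytosolic genes rose in DMSO (4.45% of all genes), 14 in Arg C (18.3%) and 14 in linezolid (15%), and 0 fell with any of the 3 (all genes 3.22%, 13.7% and 17.9%, and in either direction 7.67%, 32% and 32.9%). The mitochondrial counts were 0, 3 and 3 rises of 15, and 0 falls. The share of cytosolic genes that rose was above the background in each drug, and the cytosolic medians of 0.27, 0.53 and 0.43 lay beside 0.03, -0.00 and -0.05 for all genes. The 4 genes in DMSO were Tars, Eprs, Gars and Nars. Counts under median-ratio scaling were 4, 15 and 15 cytosolic rises. On that scale Dars passed in DMSO (adjusted p = 0.0235) and Gars did not (adjusted p = 0.21). The mitochondrial gene Aars2 fell there in Arg C, with a difference of -0.36 (adjusted p = 0.0254). The DMSO count fell to 2, 1 and 2 without the experiment 1 sample of cycle 2, the experiment 2 sample of cycle 2 or the experiment 2 sample of cycle 4, and the Arg C count over all members from 17 to 11 without the experiment 1 sample of cycle 2 or the experiment 2 sample of cycle 4.

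Tars had the firmest course. Its 2 experiments gave 18.8 and 17.3 RPKM at cycle 2, 24.4 and 21.4 at cycle 3 and 25.6 and 24.7 at cycle 4 in DMSO, where it rose by 0.46 ± 0.06 (SE, adjusted p = 0.00152). In Arg C the values were 12.9 and 12.1, 22.1 and 20.7, then 26.7 and 24.9, a rise of 0.99 ± 0.06 (adjusted p = 2.20e-06). In linezolid they were 17.7 and 16.2, 31.2 and 27.3, then 34.8 and 33.8, a rise of 0.98 ± 0.06 (adjusted p = 3.32e-06). On the RPKM scale Tars therefore started below DMSO in Arg C and reached its level by cycle 4. Its place against DMSO depends on the scaling, as given above. The signed difference (drug minus DMSO) moved upward from cycle 2 to cycle 4 by 0.53 in Arg C (adjusted p = 0.00586) and by 0.52 in linezolid (adjusted p = 0.0116), tested as the interaction of drug and cycle.

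Eprs went from 16.3 and 16.1 RPKM at cycle 2 to 33.3 and 33.5 at cycle 4 in Arg C, against 23.0 and 21.3 to 29.2 and 31.2 in DMSO. Its rise was 1.00 in Arg C, 0.85 in linezolid and 0.43 in DMSO (adjusted p = 9.81e-06, 3.40e-05 and 0.00921). The interaction was 0.57 for Arg C (adjusted p = 0.0124) and 0.41 for linezolid, which did not pass (adjusted p = 0.0608) but did with median-ratio scaling (0.50, adjusted p = 0.0488). Aars was already high at cycle 2 in Arg C, at 38.1 and 39.1 RPKM, and had a change of 0.08 to cycle 4 (adjusted p = 0.520). In linezolid Aars rose by 0.42 (adjusted p = 0.00329), from a mean of 37.7 RPKM at cycle 2 to 50.7 at cycle 4. Lars2 had the largest DMSO value, 0.71 ± 0.47 (SE, adjusted p = 0.411), which did not pass and rests on the 1 high sample.

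For Arg C 4 cytosolic genes (Farsb, Eprs, Rars and Tars) and 1 mitochondrial gene (Yars2, for tyrosine) had a signed difference from DMSO that moved upward from cycle 2 to cycle 4, where 4.25% of all genes did so. For linezolid these were 2 cytosolic genes, Tars and Nars (2.05%). Rars and Yars2 lay below DMSO at both cycles in Arg C and came closer to it: Rars had means of 6.65 RPKM against 18.05 at cycle 2 and 12.4 against 22.0 at cycle 4. Without the experiment 1 DMSO sample of cycle 2 the Arg C count fell from 5 to 1, and without the experiment 1 DMSO sample of cycle 4 the linezolid count fell from 2 to 0. None of the members changed the other way with either drug (all genes 3.66% and 3.34%, and in either direction 7.92% and 5.39%). Yars2 in Arg C went from 1.28 and 1.35 RPKM at cycle 2 to 4.25 and 3.16 at cycle 4, against 4.81 and 4.46 to 5.75 and 5.57 in DMSO.

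**Figure D5:**
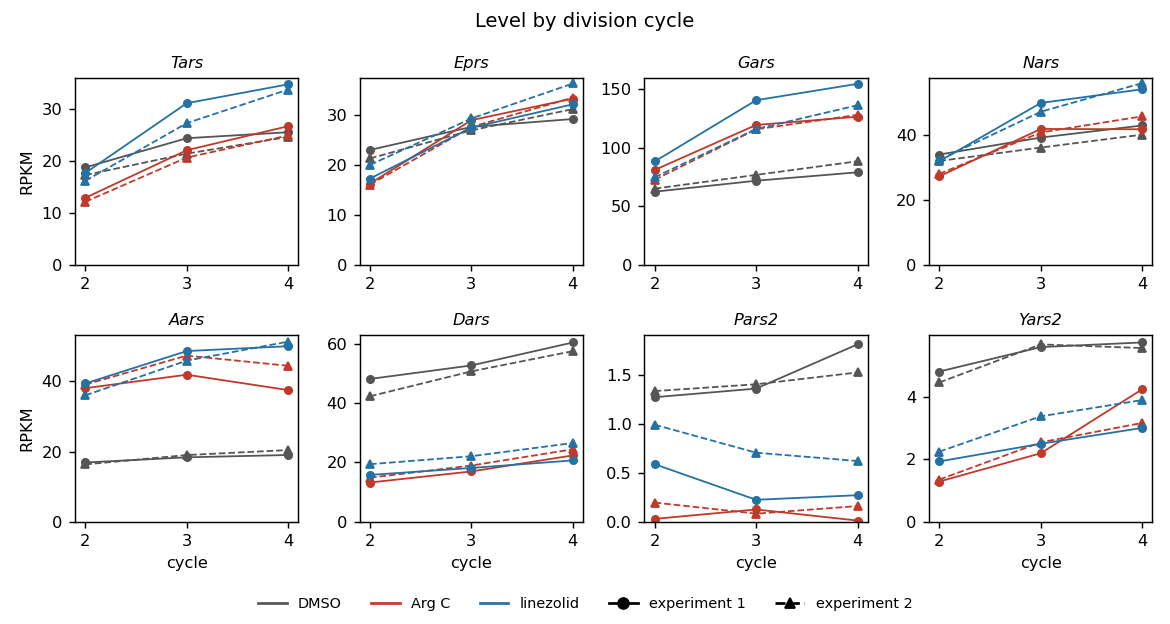
RPKM by division cycle for 8 genes, with 1 line per drug and experiment (solid lines with circles experiment 1, dashed lines with triangles experiment 2) and axes from 0. Tars and Eprs climb from cycle 2 to cycle 4 with both drugs, Aars is high in the drug samples at each cycle, and Pars2 stays at or under 0.195 RPKM in Arg C throughout.

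The drug effects were also compared between the 2 experiments. For Arg C, 1 mitochondrial gene (Hars2) had a higher and 1 cytosolic gene (Qars) a lower difference in experiment 2, where 16.1% of all genes were higher and 2.32% lower (18.4% together). For linezolid 4 cytosolic genes (Cars, Dars, Lars and Wars) and 2 mitochondrial genes (Iars2 and Pars2) were higher, and Kars and Qars lower, with 24.4% and 3.3% over all genes (27.7% together). Under median-ratio scaling these counts were 0 higher and 2 lower for Arg C and 1 and 5 for linezolid. Lars showed this most clearly: its linezolid samples were at 2.35, 2.21 and 2.50 RPKM in experiment 1 and at 3.24, 3.51 and 4.14 in experiment 2. All 6 values were below the lowest DMSO sample of 5.56.

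Genes that work beside the synthetases were counted from 4 further lists. Of 11 cytosolic partners (scaffold proteins, tRNA export, selenocysteine charging and elongation factors) 5 rose and 6 fell in Arg C, and 4 and 6 in linezolid. With median-ratio scaling the counts were 6 and 4, then 5 and 5. For each of these lists the shares to read beside the counts are those of all genes, 16.5% higher and 70% lower in Arg C and 21% and 54.5% in linezolid, or 41.4% and 41.9%, then 36.9% and 37.1%, with median-ratio scaling. Aimp2, a scaffold of the multi-synthetase complex, fell from a DMSO range of 15.1 to 18.6 RPKM to 2.17 to 4.28 in Arg C and 4.03 to 5.64 in linezolid. Its log2 difference of -2.18 ± 0.09 (SE, adjusted p = 4.88e-10) in Arg C exceeded in size that of every synthetase on the log2(RPKM + 1) scale. As a ratio of RPKM the low gene Pars2 fell further, from a mean of 1.31 in DMSO to 0.112 in Arg C at cycle 2. The elongation factor subunits Eef1g and Eef1b2 rose by 1.41 and 0.90 in Arg C, and Sepsecs, which completes selenocysteine on its tRNA, fell by 1.15.

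Of 6 tested partners of mitochondrial charging and delivery 5 fell and 1, Qrsl1, rose with each drug, and after scaling by the median ratio 2 stood above DMSO and 4 below in Arg C, and 1 and 3 in linezolid. Qrsl1 is part of the amidotransferase that makes glutaminyl-tRNA in mitochondria. Tsfm, the mitochondrial elongation factor Ts, ranged from 8.24 to 10.1 RPKM in DMSO, from 3.96 to 5.06 in linezolid and from 1.90 to 3.53 in Arg C, in 3 separate groups. It fell by 1.46 and by 0.89 on the log2 scale (SE 0.05, adjusted p = 9.73e-11 and 1.50e-08). Mtfmt, which formylates the initiator tRNA, fell by 1.02 in Arg C, and Gatc and Trnt1 by 0.84 each. Gatb did not reach the testing level.

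Of 29 genes for tRNA processing and modification 5 rose and 24 fell in Arg C, and 3 and 23 in linezolid. Scaled by the median ratio, 7 stood higher and 16 lower in Arg C, and 5 and 16 in linezolid. On the RPKM scale the share that fell, 24 of 29 in Arg C, stood beside 70% of all genes. Nsun2, a tRNA cytosine methyltransferase, fell from 21.1 to 28.8 RPKM in DMSO to 2.62 to 8.22 in Arg C, by 2.18 ± 0.07 on the log2 scale (SE, adjusted p = 5.10e-11). Pus1, a pseudouridine synthase, Tsen34, of the splicing endonuclease, and Elac2, which trims 3′ ends, fell by 1.58, 1.10 and 1.10.

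Of 20 tested genes of uncharged-tRNA sensing and the ATF4 response 7 rose and 9 fell in Arg C, and 8 and 7 in linezolid. Those counts turned to 13 higher and 7 lower in Arg C, and 10 and 4 in linezolid, with median-ratio scaling. Asns, the asparagine synthetase that makes the amino acid itself, rose from 5.33 to 12.4 RPKM in DMSO to 15.7 to 42.6 in Arg C and 13.8 to 43.4 in linezolid. Its differences were 1.62 ± 0.05 (SE, adjusted p = 4.96e-11) and 1.57 ± 0.05 (adjusted p = 1.13e-10). Mthfd2, of mitochondrial folate metabolism, rose by 1.42 in Arg C, while Vldlr and Stc2, a lipoprotein receptor and a secreted glycoprotein, fell by 2.45 and 1.77. The sensor gene Eif2ak4 itself was lower, at 3.69 to 4.49 RPKM in DMSO, 1.17 to 1.96 in Arg C and 1.84 to 2.57 in linezolid, and was named after its values were seen. Atf4 messenger RNA overlapped between the groups, at 208 to 241 RPKM in DMSO, 202 to 267 in Arg C and 146 to 260 in linezolid.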

How the data were processed

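Gene-level RPKM values for 54 libraries were used as the authors deposited them. The unit is not named in the file and was read from the values: within a library, values of a gene are whole multiples of what 1 read is worth (tolerance 1e-04 of a read) for 19274 of 19284 genes with any value. Per the submitters' processing notes, CASAVA was among the tools and GRCm38.p5 was the build. The aligner, counting tool, annotation, library kit and strand setting remain not given in the sources used here, which leaves the handling of overlapping genes unknown. The 3 technical libraries of a sample carry the same tag on different lanes, differed by little more than sampling noise (chi-square per degree of freedom 1.04 to 1.11) and were counted as 1 sample. Library totals were 8.00 to 12.5 M reads.

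Values were tested as log2(RPKM + 1) with limma 3.58.1 in R 4.3.3, with a mean-variance trend, 1 mean for each combination of drug and cycle, and a block for experiment (8 residual degrees of freedom). The 11004 genes that reached 0.5 RPKM in 2 or more of 18 samples entered, and p-values were Benjamini-Hochberg adjusted over them in each of 19 comparisons. The code was tested on simulated data. Genes given in full were the 5 cytosolic and 4 mitochondrial genes at each end of the Arg C difference, Gars, Kars and Eprs, the 3 with the largest difference between drugs and the 3 with the largest difference between cycles in DMSO, with up to 4 genes per pathway list by smallest p. Others were named after their values were seen. The members and lists were chosen with earlier results of these data known. Alternatives covered scaling, pseudocount, filter, trend, recovered reads, blocks and left-out libraries. Exon overlaps come from GENCODE M21 and promoter windows from RefSeq. Some items are not reported here.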

Additional observations from a re-analysis of the deposited data

Results flagged for a closer look

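A single sample stood far from the other 5 of its drug in 4 of 108 groups examined, where chance alone gives about 1 in 20. Wars reached 9.06 RPKM in 1 DMSO sample, with the next at 7.46, and Cars2 was at 2.47 RPKM in 1 DMSO sample, with the next at 3.18. Lars2 was at 25.4 RPKM in DMSO at cycle 4 of experiment 1, with the next DMSO sample at 7.51, and at 79.7 RPKM in linezolid at cycle 3 of experiment 1, with the next linezolid sample at 31.8.

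The drug difference depended on the cycle or on the experiment for 17 of 140 gene and contrast combinations tested (limma interaction terms, adjusted over all genes). For cycle, 5 (Arg C) and 2 (linezolid) of 35 members were called, beside 7.92% and 5.39% of all genes. For experiment, 2 and 8 of 35 were called, beside 18.4% and 27.7%, so the members did not exceed the background there. The signed Arg C difference (drug minus DMSO) moved upward from cycle 2 to cycle 4 on the log2 scale for Yars2 by 0.77 (adjusted p = 0.0359), Farsb by 0.59 (0.0222), Eprs by 0.57 (0.0124), Rars by 0.54 (0.0473) and Tars by 0.53 (0.00586). Rars and Yars2 lay below DMSO at both cycles. The signed linezolid difference moved upward for Tars by 0.52 (adjusted p = 0.0116) and Nars by 0.44 (0.0295). Between experiments (2 minus 1) the Arg C difference changed by -0.40 for Qars (adjusted p = 0.0188) and by 0.34 for Hars2 (0.046). The linezolid difference changed by 0.62 for Wars (adjusted p = 0.0434), 0.58 for Lars (0.00436), 0.44 for Iars2 (0.0397), 0.42 for Pars2 (0.0491), 0.40 for Dars (0.0119), 0.31 for Cars (0.0233), -0.33 for Kars (0.0369) and -0.38 for Qars (0.0172).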

How the results depend on the processing

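The counts over all members for Arg C against DMSO (27) and linezolid against DMSO (28), over all cycles and at each cycle, stayed within 1.5 times under every alternative run. Counts split by compartment and direction moved with the scaling. With median-ratio and upper-quartile scaling the cytosolic genes higher in Arg C were 13 and 13 (6 as reported), the mitochondrial genes higher in Arg C 4 and 4 (1), and those higher in linezolid 4 and 3 (1). For Arg C against linezolid the same scalings gave 9 and 7 cytosolic genes higher (2) and 4 and 6 lower (11), 4 and 4 mitochondrial genes higher (0) and 4 and 4 lower (10), and 13 and 13 members called at cycle 2 (22). Upper-quartile scaling gave 4 members whose linezolid difference depended on cycle (2), and 1 and 5 that depended on experiment for Arg C and linezolid (2 and 8). The side-by-side medians under median-ratio scaling were 0.55 (cytosolic, Arg C, from -0.08), -0.28 (mitochondrial, Arg C, from -0.75), 0.50 (cytosolic, linezolid, from 0.22) and -0.14 (mitochondrial, linezolid, from -0.37). Without rescaling, the mitochondrial medians over members whose mean reached 5 RPKM (Fars2, Iars2, Tars2 and Lars2) were -0.39 (Arg C) and -0.18 (linezolid). Without Lars2 they were -0.75 and -0.37. Among the genes given in full the sign turned, under median-ratio and upper-quartile scaling, in Arg C for Fars2 (0.58, 0.41), Wars2 (0.28, 0.19), Sars2 (0.39, 0.24), Eprs (0.55, 0.37), Cars (0.47, 0.30) and Tars (0.44, 0.26), in linezolid for Wars2 (0.0435, median-ratio only) and Eprs (0.27, 0.15), and for Arg C against linezolid for Aars (0.24, 0.18), Sars (0.27, 0.21), Gars (0.24, 0.18), Dars (0.20, 0.14), Farsa (0.0247, median-ratio only), Fars2 (0.32, 0.26), Sars2 (0.14, 0.0940) and Eprs (0.28, 0.22). Among other members it also turned under median-ratio scaling, in Arg C for Farsb (0.55), Nars (0.62), Aars2 (0.11) and Cars2 (0.13), in linezolid for Farsb (0.18) and Aars2 (0.19), and for Arg C against linezolid for Cars2 (0.26), Hars (0.0972), Nars (0.11), Tars2 (0.12), Vars (0.21), Vars2 (0.0398) and Yars2 (0.0802).

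The 54 libraries were also fitted as single replicates, which treats technical replicates as samples. Their numbers pair only by lane. Without and with the replicate block the members called were 23 and 23 at cycle 3 (10) and 25 and 25 at cycle 4 (12) for Arg C against linezolid, 26 and 25 in DMSO (4), 27 and 27 in Arg C (17) and 27 and 27 in linezolid (17) for cycle 4 against cycle 2, and 21 and 20 (5) and 20 and 19 (2) for the dependence of the Arg C and linezolid differences on cycle. Cytosolic genes lower in Arg C than in linezolid were 17 and 17, and mitochondrial genes higher 1 and 1. Dependence on experiment, where no replicate block could be fitted, gave 13 (Arg C) and 19 (linezolid).

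Without a filter, the dependence on cycle and on experiment gave 3 and 1 for Arg C and 5 for linezolid (experiment), and 1 cytosolic gene was higher in Arg C than in linezolid. Without a block for experiment, Arg C against linezolid at cycle 3 gave 6, and both cycle dependences 0. With only the groups compared in the fit, cycle 4 against cycle 2 in DMSO gave 12, both cycle dependences 0, and the experiment dependences 1 and 4. With the 3 cycles averaged, Arg C against linezolid gave 12 members (23), with 0 cytosolic genes higher, 1 mitochondrial gene higher and 3 lower. Fewer samples or groups enter those fits, and beyond that the cause of these moves was not tested.

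Leaving out single samples, technical replicates or an experiment gave, for Arg C against linezolid, 11 to 25 members over all cycles and 11 to 23, 4 to 11 and 5 to 16 at cycles 2, 3 and 4, with 0 to 2 cytosolic genes higher and 3 to 11 mitochondrial genes lower. Cycle 4 against cycle 2 gave 1 to 5 in DMSO and 11 to 18 in Arg C. Dependence on cycle gave 1 to 5 (Arg C) and 0 to 7 (linezolid), and on experiment 0 to 3 and 2 to 13. Mitochondrial genes higher than DMSO were 0 to 1 with either drug, the 1 being Lars2. Signs turned within these fits for Fars2 (Arg C -0.0470 to 0.0224, linezolid -0.0625 to 0.0839, Arg C against linezolid -0.0944 to 0.0392), Wars2 (Arg C -0.0764 to 0.00303), Eprs (linezolid -0.0891 to 0.0816, Arg C against linezolid -0.17 to 0.0137) and Iars (linezolid -0.0476 to 0.28). Depth limits Pars2 and Ears2, which rest on as few as 1 and 9 reads in a drug sample.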
